A study of Mus musculus with 7 samples.

Results

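The mRNAs described here are the 6 that the mouse mitochondrial genome encodes for the cytochrome-bearing complexes and for ATP synthase, namely mt-Co1, mt-Co2, mt-Co3, mt-Cytb, mt-Atp6 and mt-Atp8. The rule names them by symbol and uses no measured value, although earlier results of these data were known when it was set, and all 6 of 6 symbols were found among the 13218 genes of the tables. CIRS-seq marks unpaired RNA bases with 2 reagents and counts where reverse transcription (RT) then stops. DMS (dimethyl sulfate) modifies mainly A and C, and CMCT, a carbodiimide, modifies mainly U and G. The cells were E14 mouse embryonic stem cells (ESCs) of the 129/Ola strain, a single cell line, so the data hold for that line. All 6 CIRS-seq libraries came from lysates treated with Proteinase K, so the RNA was probed without its proteins. The DMS group joined reactions at 50, 100, 150 and 200 mM (2 minutes at 30 °C), the CMCT group reactions at 10, 20, 25 and 50 mM (20 minutes at 30 °C), and the non-treated (NT) group held the buffer controls at 0 mM, with 2 replicates in each group. One RNA-seq library of untreated E14 ESCs, depleted of ribosomal RNA, was measured once, so its values have no replicate check.

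Mitochondrial DNA is transcribed from both strands into long precursors, which are cut mostly at the tRNAs that lie between the coding regions. The resulting mRNAs have hardly any untranslated sequence, and several receive the end of their stop codon only with the poly(A) tail. COX1, COX2 and COX3 form the catalytic core of cytochrome c oxidase (complex IV), which passes electrons to oxygen, and cytochrome b is the one subunit of the cytochrome bc1 complex (complex III) that the mitochondrial genome encodes. ATP6 forms part of the proton path of ATP synthase and ATP8 is a small accessory subunit, and both are read from a single mRNA in overlapping frames.

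In the mm9 assembly the 6 coding regions lie on the plus strand of chromosome M. mt-Co1 (ENSMUSG00000064351) spans chrM:5328-6872, mt-Co2 (ENSMUSG00000064354) chrM:7013-7696 and mt-Co3 (ENSMUSG00000064358) chrM:8607-9390. mt-Cytb (ENSMUSG00000064370) spans chrM:14145-15288, mt-Atp8 (ENSMUSG00000064356) chrM:7766-7969 and mt-Atp6 (ENSMUSG00000064357) chrM:7927-8607. The last 43 bases of mt-Atp8 are the first 43 of mt-Atp6, and the last base of mt-Atp6 is the first of mt-Co3. Each is annotated as 1 exon without introns. The last 25 bases of each transcript carry no counts, which left 4892 measured positions of 5042. Their starts are shown with the start codon in capitals, because the mRNAs begin with it and because the mt-Atp6 start lies inside mt-Atp8.

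mt-Co1, chrM:5328-5348: AUGuucauuaaucguugauua
mt-Co2, chrM:7013-7033: AUGgccuacccauuccaacuu
mt-Co3, chrM:8607-8627: AUGacccaccaaacucaugca
mt-Cytb, chrM:14145-14165: AUGacaaacauacgaaaaaca
mt-Atp6, chrM:7927-7947: AUGaacgaaaaucuauuugcc
mt-Atp8, chrM:7766-7786: AUGccacaacuagauacauca

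With every genomic position taken once, the NT libraries held 181331360 and 163073003 RT stops, the DMS libraries 170497865 and 153968447, and the CMCT libraries 247369982 and 140186204. The 6 mRNAs held 0.177% to 0.546% of these. Looked for among the 13218 genes of the tables, all 9 ESC markers were found, at RNA-seq depths of 237.6 (Klf4) to 7032 (Dppa5a) alignments per kb. Of the others, 1 of 4 fibroblast markers (Col1a1, 1.24), 0 of 4 endoderm markers and 2 of 4 neural markers (Tubb3 at 361.3 and Pax6 at 3.99) were listed. RNA-seq depth was read only for listed genes, so that of the absent markers is not known.

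Chromosome 1 of mm9 carries full copies of 4 of the mRNAs on its minus strand. These are mt-Co2 (chr1:24621721-24622404), mt-Atp8 (chr1:24621448-24621651), mt-Atp6 (chr1:24620810-24621490) and mt-Co3 (chr1:24620027-24620810). No position of these 4 mRNAs starts a 25-base sequence found once in the genome, against 461 (30.3%) of the measured positions of mt-Co1 and 973 (87.0%) of mt-Cytb. In the RNA-seq library every read aligned to such a copy was also listed on chromosome M. Values of the 4 copied mRNAs are therefore those of the mitochondrial mRNA and its nuclear copy together, since how the RT stops of such reads were assigned is not given in the sources used here. Positions found once held 35.5% of the RT stops of mt-Co1 and 87.3% of those of mt-Cytb, so the same limit holds for the rest of their stops.

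A pair of features of the tables touches the values below. The first is a window of 100 positions, from position 399 to 498 of each transcript, in which counts summed over genes are lower than beside it, by amounts that differ between libraries. The edges of this window were found after the data were seen. In 5 of the 6 mRNAs (mt-Atp8 is too short to reach it), the window held, per position, 71.5% and 59.0% of the mean of the 100 positions before and the 100 after it in the NT libraries. It held 31.5% and 48.6% in the DMS libraries, and 40.5% and 5.44% in the CMCT libraries. mt-Atp6 went against this sum, with 215.9% and 139.5% in NT and 135.7% in the first CMCT library, while its DMS libraries held 70.2% and 77.4% and its second CMCT library 5.88%. The other genes summed showed 70.8% and 67.1%, 49.4% and 45.2%, and 69.6% and 31.9%. Inside the window the first CMCT replicate held 18.1 times the stops of the second in these 5 mRNAs, against 2.31 and 2.51 times beside it. The second feature lies at the 3′ end, where the replicates of a treatment hold nearly equal counts. In the last 20 measured positions, replicate counts differed by at most 1 stop at 120 of 120 positions in NT, 120 of 120 in DMS and 119 of 120 in CMCT, against 15.7%, 8.01% and 15.3% of the positions elsewhere. In NT these positions held only 137 and 136 stops in all, so that agreement within 1 stop is largely set by the low counts there. Of the last positions with at least 50 stops in both replicates together, 12 of 12 in DMS and 3 of 3 in CMCT differed by at most 1 stop, and NT had 0 such positions. The ratio of the replicates was 1.01, 1.00 and 1.01 in the last positions, against 1.80, 0.696 and 2.13 elsewhere. These last positions held 0.0338% to 0.202% of the stops of the 6 mRNAs, but 3.71% of those of mt-Atp8. The same was looked at in all 8710 genes with 1 listed transcript, from which these mRNAs were not left out. Of their last positions with at least 50 stops in both replicates together, 72.7% to 79.8% differed by at most 1 stop. The feature is thus not particular to these mRNAs. Whether replicates are independent at these positions is in doubt, and the tests are given with and without either stretch where a call depends on it.

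**Figure D1:**
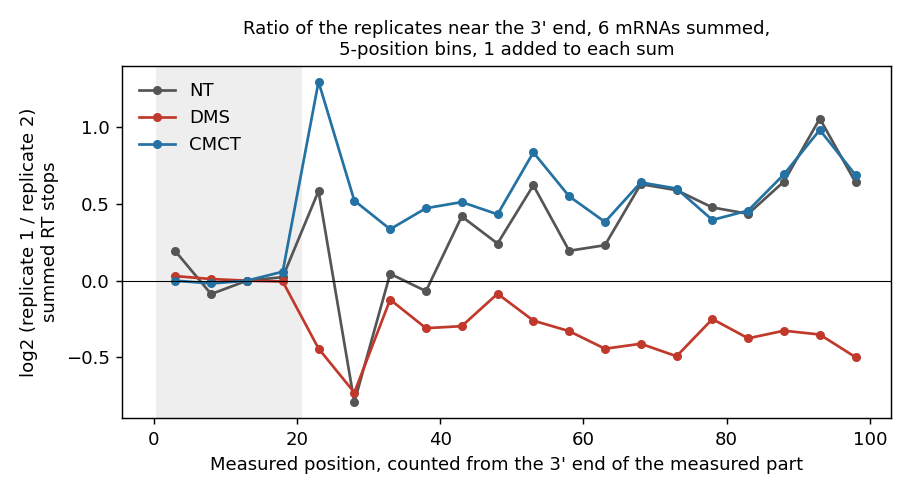
The log2 ratio of summed RT stops in replicate 1 over replicate 2 (y axis) is plotted for the 6 mRNAs against the measured position counted from the 3′ end (x axis, bins of 5 positions), with a line for each treatment. In the shaded last 20 positions the 3 lines lie near 0, and farther inside DMS lies below 0 while CMCT lies above it.

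How much of each mRNA the cells held was read from the RNA-seq library, per kb of exon outside overlaps. mt-Co3 had the highest depth, 81223 alignments per kb (rank 38 of 13031 genes), followed by mt-Co1 with 74027 (rank 39). mt-Co2 followed with 25753 (rank 76), mt-Atp8 with 20795 (rank 93), mt-Atp6 with 18279 (rank 104) and mt-Cytb with 4608 (rank 363). The order has no error, since there was 1 library. Chromosome M held 3579654 of the 31857551 alignments (11.2%). A bulk library cannot tell fewer cells with an mRNA from less of it in each cell. Alignments lay on both strands, so antisense transcripts of the other mitochondrial strand would be counted too. Of the coverage summed over bases, the plus strand held 44.3% in mt-Atp6 and 69.1% in mt-Atp8. In mt-Co1, mt-Co2, mt-Co3 and mt-Cytb it held 49.4% to 51.4%. Unlike the depth per kb, this coverage includes the bases that mt-Atp8 and mt-Atp6 share.

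RT stops followed another order. Levels are given as RT stops per measured base for every 1000000 RT stops of the library, called scaled stops per base from here on. mt-Co1 had 1.10 and 0.658 in the NT libraries, 1.13 and 1.95 in the DMS libraries and 1.01 and 0.763 in the CMCT libraries. mt-Co3 had 0.554 and 0.335 in NT, 0.630 and 0.963 in DMS and 0.523 and 0.483 in CMCT. mt-Co2 had 0.443 and 0.296 in NT, 0.781 and 1.09 in DMS and 0.545 and 0.475 in CMCT. In both NT libraries the order was mt-Co1, mt-Co3, mt-Co2, mt-Atp6, mt-Cytb and mt-Atp8, so the first place was held by mt-Co1 and not by mt-Co3. mt-Atp6, whose mRNA also carries mt-Atp8, had 0.295 and 0.204 in NT, 0.496 and 0.659 in DMS and 0.327 and 0.321 in CMCT. mt-Cytb had 0.223 and 0.152 in NT, 0.290 and 0.456 in DMS and 0.252 and 0.217 in CMCT. mt-Atp8 had 0.164 and 0.118 in NT, 0.424 and 0.559 in DMS and 0.212 and 0.223 in CMCT. In both DMS libraries mt-Atp8 stood above mt-Cytb and mt-Co2 above mt-Co3, so these pairs changed places against NT. As means, mt-Co1 had 0.881 ± 0.316 (SD, n = 2) in NT and mt-Atp8 0.141 ± 0.033 (SD, n = 2). The NT means of neighbours in the order (mt-Co3 0.445 ± 0.155, mt-Co2 0.369 ± 0.103, mt-Atp6 0.250 ± 0.065, mt-Cytb 0.187 ± 0.050) lay within the sum of their SDs of each other. The first NT library was the higher one in each mRNA, so these SDs include a shift that the mRNAs share. They therefore do not measure how firm the order is, which was the same in both NT libraries.

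**Figure D2:**
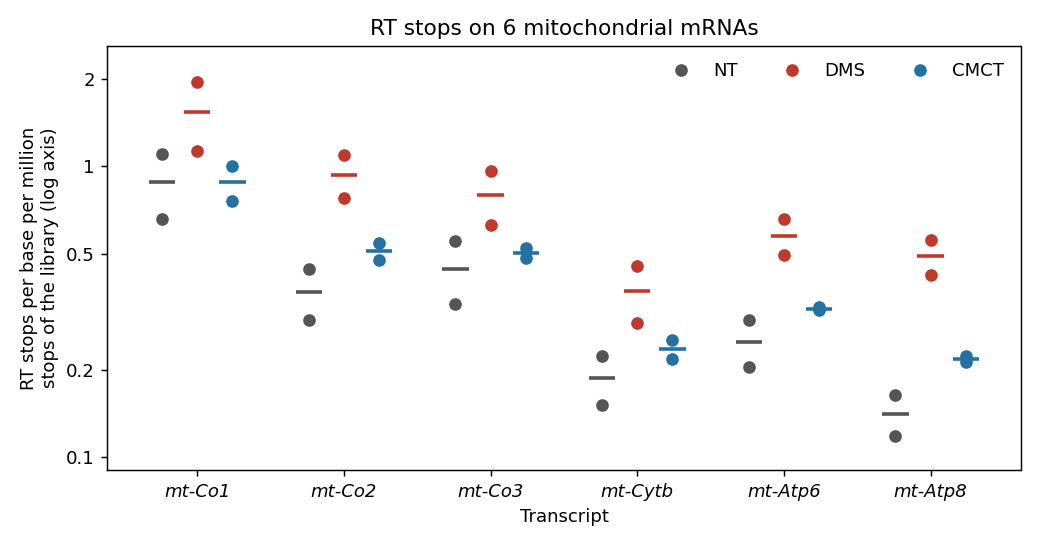
Scaled stops per base, for every 1000000 RT stops of the library (y axis, log scale), are shown for the 6 mRNAs (x axis), with 1 point for each library and a bar at the mean of 2 replicates. Both DMS points lie above both NT points in each mRNA, by the smallest margin in mt-Co1 (1.13 against 1.10), on a scale that puts the median of all genes 0.54 (log2) higher in DMS.

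Ratios between the mRNAs were not the same in RT stops and in RNA-seq depth. Those to mt-Cytb were smaller in RT stops. mt-Co1 stood 16.1 times above mt-Cytb in RNA-seq alignments per kb, but 4.71 times in RT stops per base in NT, 4.13 times in DMS and 3.77 times in CMCT. For mt-Co3 over mt-Cytb the values were 17.6 times in RNA-seq, 2.37 times in NT, 2.14 times in DMS and 2.14 times in CMCT. Other ratios were not smaller throughout. mt-Co1 stood 3.56 times above mt-Atp8 in RNA-seq, but 6.26 times in NT, 3.13 times in DMS and 4.07 times in CMCT. For mt-Co2 over mt-Atp6 the ratio was 1.41 in RNA-seq, 1.48 in NT, 1.62 in DMS and 1.57 in CMCT. mt-Co1 stood 0.911 times as high as mt-Co3 in RNA-seq and 1.98 times as high in NT. mt-Atp8 and mt-Atp6, which share an mRNA, differed by 1.14 times in RNA-seq, while mt-Atp8 had 0.563 times the RT stops per base of mt-Atp6 in NT, 0.852 times in DMS and 0.670 times in CMCT. The 2 assays differ in priming, read handling and the unit counted, and what share each had in these ratios was not tested.

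Whether the RT stops of a gene changed with a reagent, relative to the other genes, was tested in 1 fit over all 6 libraries. The fit used TMM scaling of the libraries and edgeR's quasi-likelihood test, adjusted over all genes after Benjamini and Hochberg. TMM scaling places the typical gene near no change, so a rise shared by most genes does not show in this test. DMS over NT passed the threshold of 0.05 in 1 of the 6 mRNAs, against 26.4% of all 13216 genes tested (13.8% higher, 12.5% lower). This was mt-Atp8, which rose by a log2 fold change of 1.27 ± 0.31 (SE, adjusted p = 0.0086), from 5317 and 3433 stops in NT to 12955 and 15419 in DMS. The other 5 had positive estimates that did not pass. These were 0.81 ± 0.40 for mt-Co2 (edgeR adjusted p = 0.15), 0.67 ± 0.37 for mt-Atp6 (0.19), 0.46 ± 0.39 for mt-Cytb (0.42), 0.31 ± 0.41 for mt-Co3 (0.60) and 0.27 ± 0.47 for mt-Co1 (0.70). The median of the 6 was 0.56, and that of all genes was 0.01. The 4 libraries gave no overlap in 6 of 6 mRNAs when scaled by their totals, both DMS libraries lying above both NT libraries, but so did 59.3% of all genes. Both CMCT libraries lay above both NT libraries in 3 of 6 mRNAs by the same scaling, against 56.8% of all genes.

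The mt-Atp8 call rested on 2 of the libraries, since the edgeR adjusted p was 0.064 without the second NT replicate (1.16) and 0.082 without the second DMS replicate (0.95). It held without the last 20 measured positions (1.21, edgeR adjusted p = 0.014). Scaling by library totals in place of TMM moved the median of all genes to 0.54 and made the split of calls 4047 higher and 974 lower in place of 1829 and 1656. With this scaling mt-Co2 (1.34, adjusted p = 0.012) and mt-Atp6 (1.21, adjusted p = 0.017) passed edgeR's test as well. DESeq2 also called both (adjusted p = 0.028 and 0.036), but it called 5593 of all 13216 genes. Without the second DMS replicate the estimates of 3 mRNAs turned negative, at -0.29 in mt-Co1, -0.14 in mt-Co3 and -0.016 in mt-Cytb.

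CMCT over NT passed in 0 of 6 mRNAs, against 29.0% of all genes, with log2 fold changes from -0.35 ± 0.47 (SE) in mt-Co1 to 0.25 ± 0.30 in mt-Atp8. At an unadjusted p under 0.05, edgeR gave 0 of 6 as well, and so did DESeq2 at its adjusted p, where it called 4937 of 13216 genes. DMS over CMCT passed in 0 of 6, against 9.25% of all genes. There the estimates ran from 0.49 ± 0.41 in mt-Co3 to 1.01 ± 0.30 in mt-Atp8, whose edgeR adjusted p was 0.055 and which alone had an unadjusted p under 0.05. DESeq2 called mt-Atp8 (1.12, adjusted p = 1.4e-06) and mt-Atp6 (0.77, adjusted p = 0.030), among 2673 of all 13216 genes. With library totals edgeR called mt-Atp8 (1.18, adjusted p = 0.039), among 1230 of all 13216 genes. The 3 comparisons share libraries, so their values are not independent.

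The other mRNAs of the respiratory chain are set against the same background, in which 26.4% of all genes passed and 13.8% rose with DMS. Of the 7 mitochondrial mRNAs for subunits of complex I, which takes electrons from NADH, 2 rose with DMS over NT. These were mt-Nd2 (1.12 ± 0.33, edgeR adjusted p = 0.025) and mt-Nd3 (0.91 ± 0.26, adjusted p = 0.020), and the median of the 7 was 0.91. Among nuclear genes, 0 of 11 subunits of complex IV (median 0.25), 0 of 10 of complex III with cytochrome c (median 0.01) and 1 of 15 of ATP synthase (median -0.09) passed edgeR's test. The one was Atp5h, a subunit of the peripheral stalk, at 0.70 (adjusted p = 0.037). None of these lists had a call in the other 2 comparisons.

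The bases on which the stops lay were compared next. A took 10.4% to 21.7% of the RT stops of an mRNA in the NT libraries and 31.4% to 50.6% in the DMS libraries, and the groups did not overlap in 6 of 6 mRNAs, as in 79.0% of all genes. In mt-Co3, A took 10.4% and 12.9% in NT and 31.4% and 39.9% in DMS. In mt-Atp8, it took 17.9% and 21.7% in NT and 46.4% and 50.6% in DMS. The DMS libraries stood far above NT in both mRNAs, and the second replicate was the higher one in DMS throughout. In mt-Co1, A took 14.1% and 16.2% in NT, 33.0% and 46.8% in DMS and 14.7% and 19.4% in CMCT. C, the other base that DMS modifies, took 34.7% to 38.6% in mt-Co1 in NT and 29.0% to 30.2% in DMS. Both DMS libraries lay above both NT libraries in the share of C in 0 of 6 mRNAs, against 20.6% of all genes. The mean share of U was lower in DMS than in NT in all 6 mRNAs, for example 16.6% ± 1.2 against 32.0% ± 0.6 (SD, n = 2) in mt-Atp8. A lower share of U was common among all genes. In the test of base shares described below, the U estimate of DMS over NT was above 0 in 14.2% of 12915 genes (median log2 -0.38). With CMCT, the share of U lay above NT in both libraries in 3 of 6 mRNAs (66.7% of all genes) and that of G in 1 of 6 (13.9% of all genes). Levels per base were compared too, and for C and U their direction depended on how the libraries were scaled. In mt-Co1, A had 0.452 ± 0.120 scaled stops per base in NT and 2.21 ± 1.32 in DMS, while U had 1.20 ± 0.40 and 1.17 ± 0.09 (SD, n = 2). Library totals put the median of all genes 0.54 (log2) higher in DMS than in NT. With them the mean level was higher in DMS at A in 6, at C in 6, at G in 6 and at U in 5 of the 6 mRNAs. The TMM factors were a setting added after the data were seen. With these factors the counts were 6 at A, 4 at C, 6 at G and 2 at U. A stood 3.34 (mt-Co1) to 5.97 times (mt-Atp8) as high in DMS as in NT on the TMM scale, with no overlap of the groups in 6 of 6. At C the groups did not overlap in 1 of 6 on that scale, mt-Atp8 (1.75 times), and at U in 1 of 6, also mt-Atp8 (1.24 times). At G they did not overlap in 5 of 6 (1.25 to 1.58 times), mt-Co1 being the exception (1.11 times). The share of all genes without overlap was not computed for levels per base, so these counts cannot be set against other genes.

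**Figure D3:**
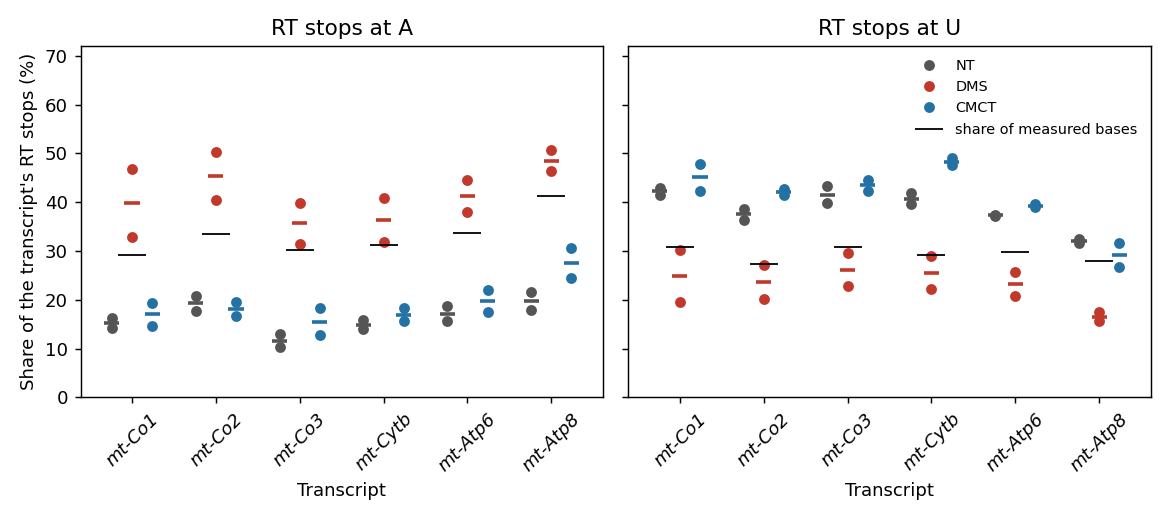
The share of an mRNA's RT stops at A (left) and at U (right), in % (y axis), is shown for the 6 mRNAs (x axis), with 1 point for each library, a coloured bar at the mean of 2 replicates and a black bar at the share of that base among the measured bases. At A, both DMS points lie above both NT points in each mRNA, and at U both DMS points lie below both NT points in each. The share of all genes without overlap at U was not computed, and a lower share of U with DMS was common among all genes.

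Whether the share of a base changed was tested against the other bases of the same gene, in 1 fit over all genes (edgeR diffSpliceDGE). For A in DMS over NT, 2 of 6 mRNAs passed, against 54.7% of the 12709 genes tested. These were mt-Co3 (log2 1.16, adjusted p = 0.023) and mt-Atp8 (0.91, adjusted p = 0.040). The estimates of the other 4 were of the same size and did not pass edgeR's test, at 1.02 in mt-Co1 (adjusted p = 0.068), 0.92 in mt-Cytb (0.080), 0.90 in mt-Atp6 (0.092) and 0.88 in mt-Co2 (0.11). The median over all genes was 0.88, so the mRNAs lay at or above the middle of all genes. With positions found once in the genome alone, mt-Co1 (0.95, edgeR adjusted p = 0.046) and mt-Cytb (0.98, adjusted p = 0.022) passed. Both calls were lost with fewer libraries, while the estimates stayed between 1.01 and 1.26 in mt-Co3 and between 0.81 and 1.00 in mt-Atp8 over all alternatives. mt-Co3 lost its call without either NT library or the second DMS library (adjusted p = 0.13 to 0.23), and mt-Atp8 lost it without any 1 of the 4 libraries (0.074 to 0.27). For C, G and U in DMS over NT, 0 of 18 pairs of mRNA and base passed edgeR's test (1, U in mt-Atp8, at an unadjusted p under 0.05), against 6.88% of the pairs of gene and base over these 3 bases. For CMCT over NT 0 of 24 pairs passed, against 3.2% of all pairs, and 0 had an unadjusted p under 0.05.

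The log2 fold changes of the mRNAs were set against their A content. A made up 29.1% of the measured bases of mt-Co1, 30.2% of mt-Co3, 31.3% of mt-Cytb, 33.5% of mt-Co2, 33.7% of mt-Atp6 and 41.3% of mt-Atp8. Over these 6 mRNAs the log2 fold change of DMS over NT and the A content had a Pearson r of 0.98 and a Spearman rho of 0.94. For CMCT over NT they were 0.90 and 0.94, so the relation was not limited to DMS. Over all 13 mitochondrial mRNAs the values were 0.27 and 0.45 with DMS and 0.65 and 0.73 with CMCT. mt-Nd6, the one mRNA from the other strand, had the lowest A content (21.5%) and a log2 fold change of 1.27 ± 0.63 (SE). The points share the same libraries, the NT libraries serve both comparisons, and the relation was noticed in these data.

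**Figure D4:**
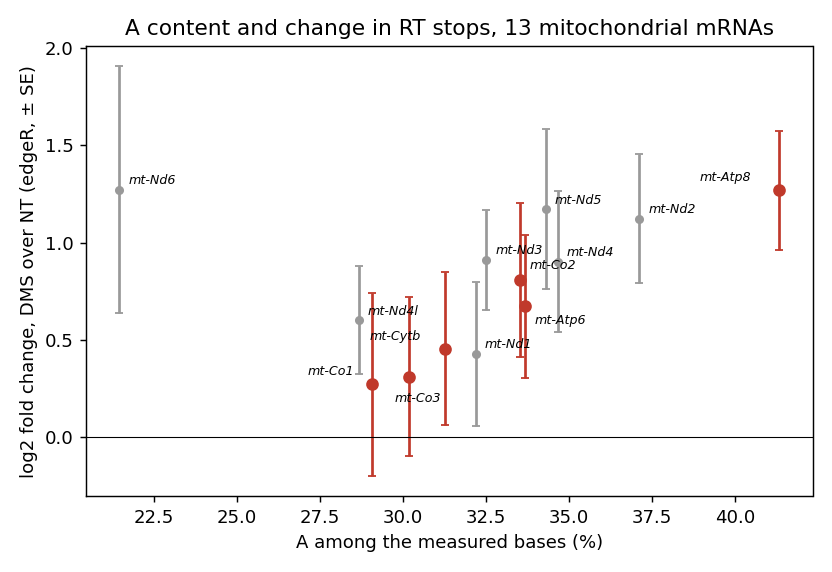
The log2 fold change of RT stops, DMS over NT (y axis, edgeR estimate with its SE), is plotted against the share of A among the measured bases in % (x axis) for the 6 mRNAs (red) and the 7 mitochondrial mRNAs of complex I (grey). The red points run from mt-Co1 at the lower left (29.1%, 0.27) to mt-Atp8 (41.3%, 1.27), with mt-Co2 above mt-Atp6 at nearly equal A content, and the grey point of mt-Nd6 (21.5%, 1.27) stands apart at the upper left.

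Without any reagent, RT stops gathered where a U or C is followed by A. Such positions made up 17.1% to 20.6% of the measured positions of an mRNA, and they held 50.1% to 61.6% of its stops in the first NT library and 49.2% to 57.2% in the second. In the DMS libraries they held 38.1% to 46.0% and 31.1% to 38.8%, and in the CMCT libraries 41.3% to 58.8% and 35.8% to 49.6%. A followed by A went the other way, with 1.45% to 6.26% of the stops in the first NT library and 15.9% to 31.6% in the first DMS library. Among 5741 other genes with 1 listed transcript, U or C before A had a median of 38.0% of the stops at 11.8% of the positions in NT. The 6 mRNAs stood at percentiles 76.6 (mt-Co2) to 92.9 (mt-Co3) of these genes. These percentiles are of the share of stops, and the 6 mRNAs also have more such positions than the median of those genes. Per position, such steps held 2.68 to 3.47 times the mean of their mRNA in the first NT library and 2.53 to 3.15 times in the second. Of the 10 strongest NT positions in each mRNA, 49 of 60 lay at such a step, from 6 of 10 in mt-Co2 to 10 of 10 in mt-Cytb. In the mitochondrial mRNAs of complex I it was 7 (mt-Nd3 and mt-Nd5) to 9 (mt-Nd4l) of 10. This step was chosen after the bases next to the stops had been seen, so its share has no test.

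The strongest NT position of each mRNA is shown with 10 bases on either side and the counted base in capitals, to let the following A be seen.

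mt-Co1 567, chrM:5884-5904: gauccguacuUauuacagccg
mt-Co2 398, chrM:7400-7420: ccuggugaacUacgacugcua
mt-Co3 566, chrM:9162-9182: uucuccauuuCagaugguauc
mt-Cytb 289, chrM:14423-14443: cuuauuccuuCaugucggacg
mt-Atp6 457, chrM:8373-8393: auuuauucaaCcaauggcauu
mt-Atp8 23, chrM:7778-7798: gauacaucaaCaugauuuauc

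In 5 of these 6 sequences the capital is followed by A, mt-Atp6 being the exception. The U at position 567 of mt-Co1 had 7436 and 3312 stops in NT, 4264 and 3532 in DMS and 8850 and 2422 in CMCT. At position 566 of mt-Co3, the C had 5499 and 603 in NT, so 1 library held most of its stops, with 680 and 1954 in DMS and 2566 and 333 in CMCT. At position 23 of mt-Atp8, the C had 344 and 214 in NT and 576 and 557 in DMS. The C at position 457 of mt-Atp6 lies inside the 100-position window, with 797 and 310 in NT and 1132 and 29 in CMCT.

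The single position with the highest ratio of DMS over NT was an A in each of the 6 mRNAs, shown with the counted base in capitals.

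mt-Co1 816, chrM:6133-6153: gcuauauaggAauaguaugag
mt-Co2 584, chrM:7586-7606: uucuauggccAaugcucugaa
mt-Co3 539, chrM:9135-9155: caagcuucagAauacuuugaa
mt-Cytb 633, chrM:14767-14787: caacaggauuAaacucagaug
mt-Atp8 119, chrM:7874-7894: ccuucaccaaAaucacuaaca

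The sixth was the first base of mt-Atp6, the A of its start codon, with 1 and 0 stops in NT and 42 and 84 in DMS. In mt-Cytb, position 633 had 0 and 0 in NT and 38 and 88 in DMS. In mt-Co3, position 539 had 13 and 10 in NT and 339 and 595 in DMS. All libraries of DMS stood above those of NT at these positions, as the choice by ratio requires. In mt-Co2, position 584 had 2 and 2 in NT, 244 and 272 in DMS and 29 and 28 in CMCT. In mt-Atp8, position 119 had 5 and 2 in NT, 178 and 209 in DMS and 11 and 11 in CMCT. In mt-Co1, position 816 had 0 and 0 in NT, 161 and 162 in DMS and 21 and 21 in CMCT, and was also the position with the highest ratio of CMCT over NT. It lies in a stretch where replicates hold nearly equal counts, which is described under the other observations.

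With CMCT the highest ratios lay at a U in 4 mRNAs and at an A in 2 (mt-Co1 816 and mt-Cytb 1071). The U at position 586 of mt-Co2 had 3 and 2 stops in NT and 47 and 29 in CMCT, and lies 2 bases from the DMS position 584. The U at position 111 of mt-Atp8 had 3 and 1 in NT and 33 and 20 in CMCT. The A at position 1071 of mt-Cytb had 2 and 2 in NT, 12 and 12 in DMS and 178 and 178 in CMCT. The U at position 627 of mt-Atp6 had 8 and 3 in NT and 81 and 81 in CMCT, and the U at position 755 of mt-Co3 had 3 and 4 in NT and 54 and 55 in CMCT. In 3 of the 6 the CMCT replicates were equal or 1 stop apart at a count above 50, and as above their independence is in doubt there.

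The stops were spread unevenly along each mRNA. In mt-Co1 the bin of 50 positions with the highest mean level was positions 501 to 550 in each treatment, with 4.43 and 2.46 scaled stops per base in NT, 2.98 and 7.49 in DMS and 3.20 and 1.49 in CMCT. It led in 5 of the 6 libraries, while positions 851 to 900 led in the second CMCT library, and the level of 5.23 in DMS rested on the second library. Its lowest full bin in NT, positions 701 to 750, had a mean of 0.167 against 3.45 in the highest, so that the bins differed by 20.7 times. In mt-Cytb positions 151 to 200 led in the first NT library (0.592, against 0.229 in the second) and positions 301 to 350 in the second (0.326, against 0.418 in the first), while the lowest full bin, near the 3′ end, was positions 1051 to 1100 (0.0148 and 0.0142). In mt-Co2 positions 351 to 400 led in NT (0.920) and CMCT (1.11), and positions 251 to 300 in DMS (1.99). When each mRNA was cut into 3 parts of equal length, mt-Cytb held 58.7% and 50.5% of its NT stops in the 5′ part and mt-Co2 48.6% and 45.3% in the middle one. The share of a part passed the test in 0 of 18 pairs of mRNA and part with DMS (11.3% of all pairs) and in 0 of 18 with CMCT (13.7% of all pairs). Estimates ran from -0.27 to 0.23 (edgeR diffSpliceDGE, log2) with DMS and from -0.33 to 0.37 with CMCT, the extremes of both being the 5′ and 3′ parts of mt-Atp8. Leaving out the 100-position window changed no call of the 6 mRNAs in RT stops per gene or in the share of a base.

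**Figure D5:**
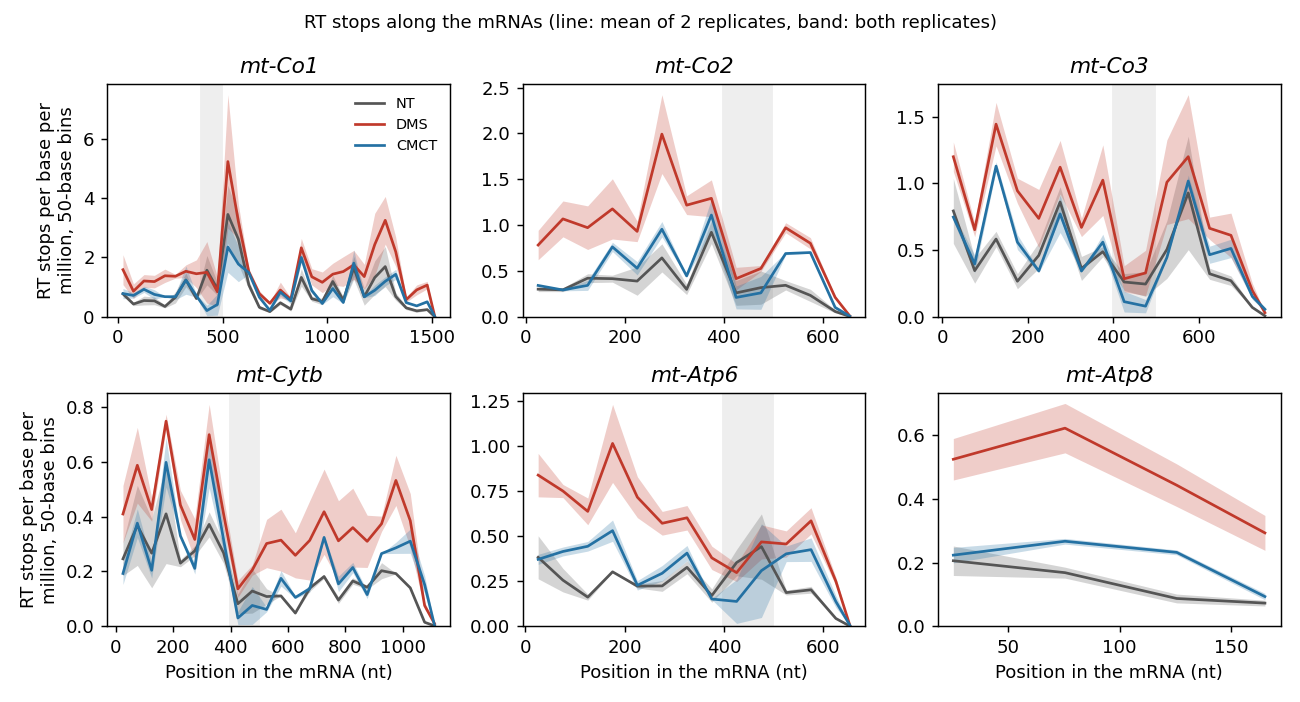
Scaled stops per base (y axis) are drawn along each mRNA in bins of 50 positions (x axis, position in nt), with a line at the mean of 2 replicates and a band between them, for NT, DMS and CMCT. The grey band marks positions 399 to 498, the window in which counts differ between libraries, and the counts of each mRNA other than mt-Atp8 fall toward 0 at the 3′ end.

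Reactivity sets the treated counts against NT at the same position. It was computed as log2 of the treated count divided by that of NT, each scaled to the mean of its transcript, with values below 0 set to 0 and the top 10% set to 1, and the larger of both reagents was used. Its mean was 0.449 in mt-Co1, 0.448 in mt-Atp8, 0.428 in mt-Cytb, 0.427 in mt-Co3, 0.419 in mt-Atp6 and 0.405 in mt-Co2. These means stood at percentiles 95.2 to 98.9 of 794 protein-coding genes with at least 20 stops per base, whose median was 0.317. Those genes were not matched to the mRNAs in depth or A content. Mean reactivity was 0.621 to 0.735 at A in the mRNAs and 0.240 to 0.373 at the other bases. What share depth and base content had in the percentiles was not tested. With Winsorising over positions above 0, the mean over the mRNAs was 0.358 in place of 0.431, and the percentiles are not for that setting. Between 30.0% (mt-Co2) and 33.0% (mt-Atp8) of the positions were highly reactive, above 0.7. Reactivities of the 2 replicates had a Pearson r across positions of 0.548 (mt-Cytb) to 0.739 (mt-Atp8). With DMS, the mean was 0.673 at A, 0.185 at C, 0.144 at G and 0.063 at U in mt-Co1, and A led likewise in the other 5 (0.564 to 0.658). With CMCT it was 0.363 at U and 0.302 at A in mt-Co1, and U stood above A likewise in mt-Co2, mt-Cytb and mt-Atp6. A stood above U with CMCT in mt-Co3 (0.351 against 0.301) and mt-Atp8 (0.315 against 0.282). Positions of 1 mRNA are not replicates, so these means have no test.

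Position 3 of the codon had the highest mean reactivity in each mRNA, then position 1, then position 2. In mt-Co1 the means were 0.549, 0.416 and 0.381, and in mt-Atp8 0.537, 0.441 and 0.367. The order was the same in all 6 mRNAs and in both replicates of each. A made up 43.4% to 64.4% of the bases at codon position 3, 23.7% to 40.0% at position 1 and 14.6% to 27.3% at position 2, and A was the base with the highest reactivity. Among A alone, the DMS reactivity was highest at position 3 in mt-Co1 (0.745, against 0.584 at position 1 and 0.626 at position 2), mt-Co2 and mt-Cytb, and at position 2 in mt-Co3, mt-Atp6 and mt-Atp8 (0.696 in mt-Atp8, against 0.547 at position 1 and 0.533 at position 3). The order of all bases (position 3, then 1, then 2) held among A in 1 of the 6, mt-Cytb (0.678, 0.573 and 0.554), and there in the first replicate (0.613, 0.533 and 0.461) but not in the second (0.638, 0.543 and 0.568). In mt-Co3, position 2 led in the first replicate (0.617) but position 1 in the second (0.663, against 0.637 at position 2).

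mt-Atp8 and mt-Atp6 share 43 bases, of which 18 are measured in both. The first 30 are shown, with the 18 in capitals, beginning at the start codon of mt-Atp6.

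mt-Atp8 and mt-Atp6 overlap, chrM:7927-7956: AUGAACGAAAAUCUAUUUgccucauucauu

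The same genomic bases had separate counts on either transcript. Over the 18 positions, mt-Atp8 was listed with 25 and 24 stops in NT, 589 and 590 in DMS and 96 and 86 in CMCT. mt-Atp6 was listed there with 1305 and 708 in NT, 2489 and 3382 in DMS and 1334 and 852 in CMCT, so it was higher in every library. Of 108 pairs of position and library, 7 had more stops on mt-Atp8. The 18 positions are among the last measured ones of mt-Atp8, where replicates hold nearly equal counts, and the first of mt-Atp6, where they do not. The cause of the difference was not tested.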

How the data were processed

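CIRS-seq and RNA-seq were made from E14 mouse ESCs. The authors deposited RT stop counts per transcript position, unnormalized, and RNA-seq alignments, whose number was the count used here. Processing notes name Bowtie 1.0.0, TopHat2 2.0.6, FastQC 0.10.1 and bedtools 2.17.0, and mm9. How reads with several places were handled is not given in the sources used here. Of 26827 transcripts, 26792 were found in GENCODE vM1 (mm9), and genomic positions shared by isoforms were counted once per gene. Groups came from the sample labels.

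Gene counts went into edgeR 4.0.16 under R 4.3.3 (scaled by TMM, filterByExpr, quasi-likelihood test, 1 fit over 6 libraries), and shares by base and by 5′, middle and 3′ part with diffSpliceDGE, adjusted by Benjamini-Hochberg at 0.05. The p-values rest on the spread between replicates, pooled over the 3 treatments of the fit and moderated over genes. Each treatment had 2 replicates, called biological in the study's methods. DESeq2 1.42.0 was an alternative. The tests were run on simulated counts first. Reactivity used a pseudocount of 1 and 90% Winsorising. Python 3.11.15, numpy 2.4.6, pandas 2.3.3 and matplotlib 3.10.9 were used. Named positions were, in each mRNA, the one with most NT stops and, per reagent, the one with the highest ratio over NT among those with at least 20 stops in each treated replicate. Lists of respiratory chain genes, and from each nuclear list at most 3 called genes, were named. The members and lists were chosen with earlier results of these data known. Alternatives were other scalings, no filter, DESeq2, a replicate block, positions found once in mm9, no strongest position and each library left out. Leaving out the last 20 measured positions or the window of 100 positions and the TMM factors for levels per base were added after the data were seen.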

Additional observations from a re-analysis of the deposited data

How the results depend on the processing

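With 2 libraries per treatment, single libraries decide many calls, and the last measured positions and the 100-position window limit what replicates show. Of 13216 genes, DMS over NT gave 3485 calls, 5593 with DESeq2, 5616 with a replicate block, 1068 at positions found once (of 11479 genes tested there) and 1719 to 4619 with 1 library left out. CMCT over NT gave 3827, 641 at positions found once and 1600 to 4402 with 1 library left out. DMS over CMCT gave 1223, 657 with RLE size factors, 2673 with DESeq2, 2420 with the replicate block, 635 at positions found once, 728 without each gene's strongest position and 428 to 1720 with 1 library left out. Library totals gave splits of 4047 higher and 974 lower for DMS over NT, 3544 and 1307 (in place of 1984 and 1843) for CMCT over NT, and 527 and 703 (in place of 326 and 897) for DMS over CMCT. The share by base gave 9602 calls with DMS (4435 to 9337 with 1 library left out) and 1633 with CMCT (588 of 39259 pairs of gene and base at positions found once, in place of 51029, and 827 to 1685 with 1 left out). The share by 5′, middle and 3′ part gave 3767 with DMS (1346 of 25562 pairs of gene and part at positions found once, in place of 33207, and 1799 to 3768 with 1 left out) and 4547 with CMCT (1153, and 2500 to 4259).

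For the 6 mRNAs, the median over positions in place of the mean gave 0.124 against 0.474 scaled stops per base in NT, 0.373 against 0.909 in DMS and 0.146 against 0.526 in CMCT. RNA-seq depth was 43552 alignments per kb, and 26033, from the coverage, at positions found once, which lie in mt-Co1 and mt-Cytb alone, so the 2 values cover different mRNAs. The same holds for the reactivity at positions found once. Mean reactivity was 0.431, 0.425 with a pseudocount of 5, 0.358 with Winsorising over positions above 0, 0.426 at positions found once, 0.452 without the window and 0.423 to 0.425 with 1 replicate left out. Of the single values of the mRNAs under the alternatives, 9 calls were lost and 10 gained.

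The labels do not say that the replicate numbers pair the libraries. Deviations from the group means of same-numbered libraries correlated over 13216 genes at 0.55 for DMS with NT, 0.012 for CMCT with NT and -0.11 for CMCT with DMS. In the replicate block mt-Atp8 was called for DMS over CMCT (1.01, edgeR adjusted p = 0.0080), and the block changed no other call of the 6 mRNAs.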

Other observations

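The G of the start codon had 0 stops in both NT libraries in 6 of 6 mRNAs, against 13 of the 647 other G positions of these mRNAs (2.01%), a pattern noticed in these data. At the bases of the start codon the NT replicates differed by at most 1 stop in each mRNA, at counts of 11 or fewer. Whether they are independent there was not tested. It holds for mt-Atp6 on its own listing, since the same genomic G is listed as position 164 of mt-Atp8 with 2 and 2 stops in NT. The U before it had 1 to 6 stops in each NT library, and the other G positions a median of 28 with both NT libraries summed, so the first bases were low beside G anywhere in the mRNAs whichever base they were. With DMS it had 0 (mt-Co2) to 9 (mt-Co3) stops in the first replicate and 2 (mt-Cytb) to 25 (mt-Co3) in the second. The A of the start codon, 2 bases before, had 0 to 11 stops in the NT libraries and 12 (mt-Cytb) to 300 (mt-Co1) in the DMS libraries. In mt-Co1 it had 4 and 4 in NT, 46 and 300 in DMS and 55 and 14 in CMCT.

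Away from the 3′ ends, 17 of 3699 positions with at least 100 stops over the 6 libraries had replicates within 1 stop of each other in all 3 treatments, and 10 of these lay in mt-Co1 between positions 807 and 835 (chrM:6134-6162). At position 809 of mt-Co1 the counts were 31 and 31 in NT, 95 and 95 in DMS and 222 and 221 in CMCT, while in the whole of mt-Co1 the libraries held 304406 and 163112 stops in NT, 292246 and 456517 in DMS and 377996 and 162601 in CMCT. Of the others, 2 lay in mt-Cytb at positions 1071 and 1072, 2 in mt-Co3, 2 in mt-Atp6, 1 in mt-Co2 and 0 in mt-Atp8. Outside the last positions, 4.17% to 4.42% of the positions of the 6 mRNAs with at least 50 stops differed by at most 1 stop between replicates, against 23.0% to 25.5% in genes with 1 listed transcript. Agreement within 1 stop is rarer at higher counts. The 6 mRNAs stood at percentiles 88.6 to 97.5 of all genes in stops per base, so these shares are not at like depth. The cause of the nearly equal counts was not tested.

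The genes whose log2 CPM over the 6 libraries was most like that of the 6 mRNAs summed, among 12185 genes with at least 1000 stops, were Apoc1 (Pearson r 0.999, 121 to 322 stops per library), Timm8b (0.992), Rpl12 (0.992), Gm5644 (0.992) and Tm2d3 (0.990). The mRNAs of complex I ranked from 136 (mt-Nd2, r 0.945) to 2677 (mt-Nd6, r 0.693).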
